A study of Mus musculus with 6 samples.

Results

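The integrins and the other receptors by which white blood cells stick to vessel walls, to matrix and to each other were examined as a group of 38 genes, out of 21700 protein-coding genes in a count table of 21780 genes. Membership was set by symbol in the GENCODE vM21 annotation of the mouse build GRCm38, by a rule that uses no measured level, although the group was picked for study with earlier results of these data known. The group held the 18 integrin α chain genes, the 8 integrin β chain genes Itgb1 to Itgb8, 4 ICAM genes, and 8 selectin and further adhesion genes, with Sele, Selp, Selplg, Vcam1, Pecam1, Cd44 and F11r among them. Of the 38 genes 37 had enough counts to be tested, and Sele had no count in any library.

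Pancreas tissue of wild-type C57BL/6 mice was taken on day 7 after PBS or 1 mg of WGP had been given intraperitoneally, and viable CD45+CD11b+ cells were sorted from it. WGP are hollow particles of yeast β-glucan. Each group had 3 libraries, and no mutant allele was carried by either group. The study used male and female mice 6 to 8 weeks old, and the sex behind each library was not given in the sources used here. It describes each sample as 1 independent animal, while the labels say only that samples were made in triplicate, so the p-values measure the spread between these samples. The CD11b gate admits monocytes, macrophages and granulocytes, and also those dendritic, NK and B cells that carry CD11b.

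Leukocyte integrins are pairs of an α and a β chain that sit in the membrane in a closed form and open when chemokine or antigen receptors signal to them from inside the cell. Selectins and their sugar-bearing ligands let a leukocyte roll along the vessel, β2 and α4 integrins then arrest it on ICAM and VCAM proteins, and PECAM and junctional molecules take part in its passage between endothelial cells. Inside the tissue, β1 and αV integrins hold cells to collagen, laminin, fibronectin and vitronectin.

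The libraries held 35334645 to 43341834 counts, and 12147 to 12860 genes were detected in each. Values are given as CPM, the counts scaled by TMM to a common library size, and a gene was called when edgeR's adjusted p was at most 0.05 and its log2 fold change of WGP over PBS was at least 1 in size. PBS replicates 2 and 3 had 8972 and 10063 counts from Y-linked genes, while PBS replicate 1 had 0 and the WGP libraries 0, 0 and 1, so the presence of Y-linked counts and the treatment can be told apart only through PBS replicate 1. The most frequent low count was between 19 and 41 reads in a library, so that several reads often stood for 1 molecule. In sorted bulk cells, fewer cells of a type and less RNA per cell cannot be told apart.

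Of the 37 tested genes 6 were called higher after WGP, namely Itgb2, Itgal, Itgb7, Itga5, Itga1 and Icam1, and 2 were called lower, namely Itga9 and Itga6. Over all 14429 genes tested, 4.53% were called higher and 4.96% lower. At the adjusted p alone, 10 of the 37 were higher and 2 lower, against 7.54% and 6.81% of all genes. In 12 genes every WGP library lay above every PBS library and in 3 genes every WGP library lay below, beside 16.0% and 16.1% of all genes. The median log2 fold change was 0.26 over the 37 genes (0.26 also where a group without any count was given 3 counts) and -0.05 over all genes tested. Together the 38 genes took 0.503%, 0.491% and 0.455% of the counts in the PBS libraries and 0.757%, 0.750% and 0.718% in the WGP libraries. These shares did not overlap between the groups, and with 3 libraries against 3 the exact two-sided permutation test gave its smallest possible p of 0.10. The value was adjusted to 0.129 over the 9 ratios and shares that were compared in this way.

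**Figure D1:**
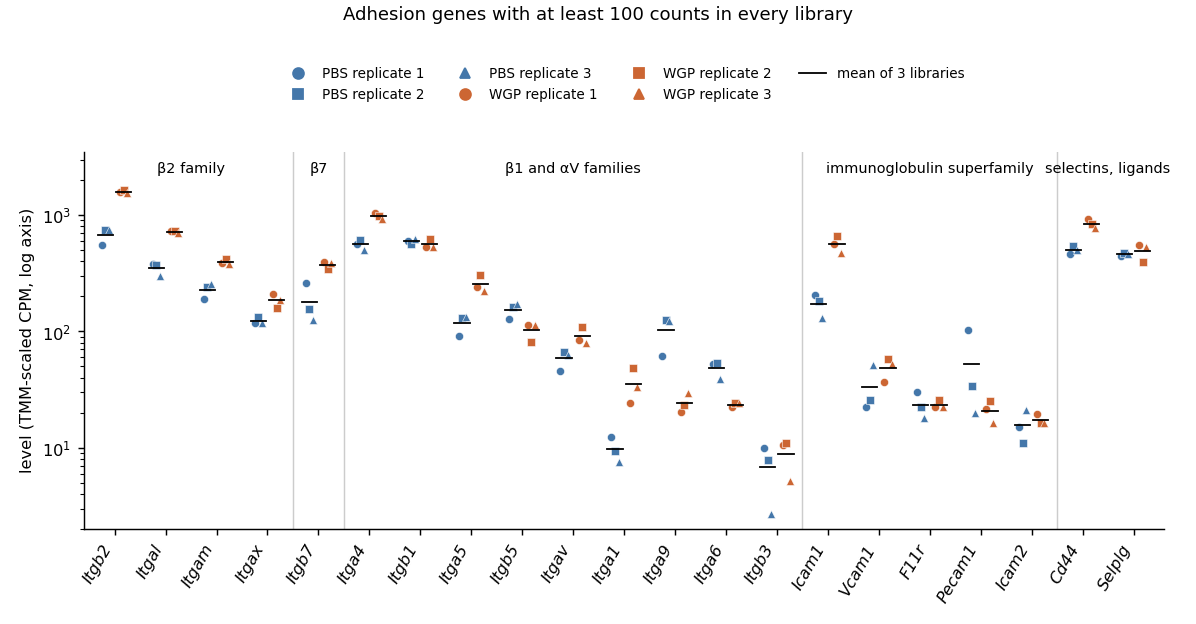
Level of 21 adhesion genes with at least 100 counts in every library, as TMM-scaled CPM on a log axis, with 1 point for each library (blue, PBS; orange, WGP) and a line at the mean of 3 libraries. In Itgb2, Itgal, Itga5, Itga1 and Icam1 the orange points all lie above the blue ones, in Itga9 and Itga6 all below, and in Itgb1 and F11r they are mixed.

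The β2 chain gene Itgb2 was the most abundant of the 38 per length of transcript. Its product pairs with each of the leukocyte α chains to form LFA-1, Mac-1 and their relatives, and loss of it causes leukocyte adhesion deficiency. Itgb2 was at 549, 750.0 and 738 CPM in the PBS libraries and at 1569, 1640.2 and 1549 CPM in the WGP libraries. All WGP libraries lay above all PBS libraries, with the lowest PBS value in replicate 1. Itgb2 rose by a log2 fold change of 1.22 ± 0.16 (SE, n = 3 against 3), which is 2.34-fold, with an edgeR adjusted p of 0.000675. It was called under each of the 16 alternative fits, with values between 1.09 and 1.53. The gene lies on chromosome 10 at 77530252 to 77565708 on the plus strand.

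The α chain genes of the β2 integrins lie together on chromosome 7. Itgal, which encodes the α chain of LFA-1 (CD11a), was at 377, 374 and 299 CPM after PBS and at 733, 723 and 706 CPM after WGP. The WGP values were close to each other and all above the PBS values. Itgal rose by 1.04 ± 0.15 (log2, SE) with an adjusted p of 0.00102 in edgeR. This sat at the edge of the fold threshold: without PBS replicate 3 the value was 0.94, with scaling by library totals 0.93 and with the Y-linked counts as a covariate 0.93, each with an adjusted p of at most 0.05.

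Itgam encodes CD11b, the protein by which the cells were sorted, so every cell in the libraries was selected to carry it. It was at 189, 241 and 254 CPM after PBS and at 388, 418 and 379 CPM after WGP. The groups did not overlap, and the log2 fold change of 0.79 ± 0.15 passed the adjusted p (edgeR, 0.00618) but stayed under the fold threshold. With the Y-linked counts as a covariate, which leaves PBS replicate 1 as the only control, it was 1.06 with an adjusted p of 0.00388 and was called. In the annotation 68.67% of the exon bases of Itgam are shared with the gene model Gm49368 on the same strand, which itself had between 96 and 378 counts in a library, so the level of Itgam may be undercounted in all libraries. Ptprc, which encodes the other sort marker CD45, was at 985 ± 50.1 CPM (SD, n = 3) after PBS and 1609.6 ± 119 CPM after WGP, with a log2 fold change of 0.71 and an edgeR adjusted p of 0.00725, and like Itgam was not called.

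Itgax, the CD11c chain found on many dendritic cells and macrophages, was at 118, 133 and 119 CPM after PBS and at 209, 158 and 188 CPM after WGP. The groups were separate, and its log2 fold change of 0.58 ± 0.15 passed the adjusted p (edgeR, 0.0275) without reaching the fold threshold. It did not pass with library totals (0.0625), with the Y-linked covariate (0.0790), or without PBS replicate 2 (0.0657), PBS replicate 3 (0.0783), WGP replicate 1 (0.122) or WGP replicate 3 (0.0970). Itgad, the CD11d chain, had 0, 0 and 1 counts after PBS and 32, 1 and 1 counts after WGP, with a most frequent low count of 19 in the library that had 32.

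**Figure D2:**
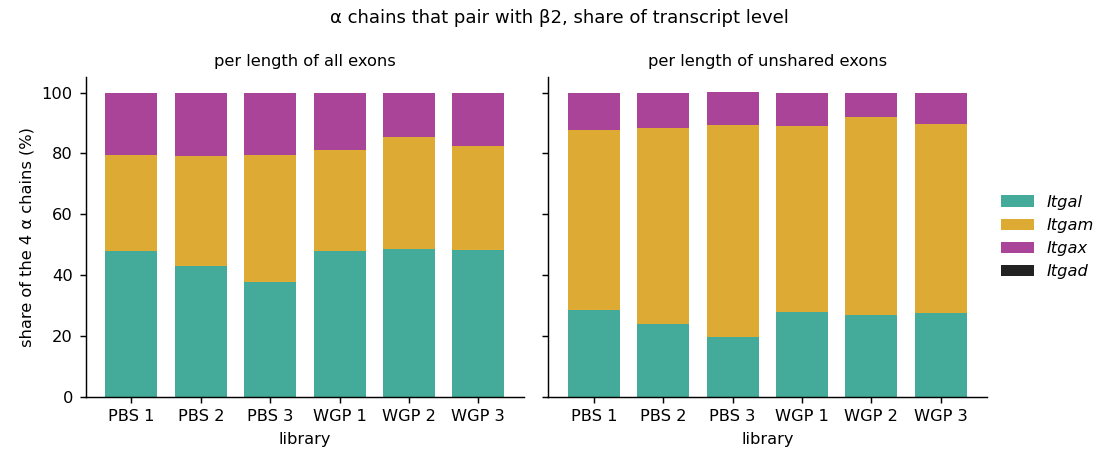
Share of each α chain gene in the summed level of the 4 chains that pair with β2, in percent for each library, scaled by the length of all exons (left) or of the exons that no other protein-coding gene shares (right). On the left Itgal takes between 37.7% and 48.7% and on the right Itgam takes between 59.4% and 69.7%, while Itgad is too low to be seen.

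The α chains were also compared as shares of their summed level per length of exon. Itgal made up 48.0%, 43.0% and 37.7% of the 4 chains in the PBS libraries and 48.0%, 48.7% and 48.4% in the WGP libraries. Itgam made up 36.5% ± 5.22 (SD, n = 3) after PBS and 34.6% ± 1.88 after WGP, with p = 0.70 in the exact permutation test. Itgax made up 20.7% ± 0.254 after PBS and 17.0% ± 2.16 after WGP, with groups that did not overlap. For Itgal and Itgax the exact permutation p was 0.10, the smallest that 3 against 3 can give, and 0.20 after adjustment over the 4 chains. Scaling by the length of unshared exons alone, a choice made after the data were seen, turned the order of the leading chains. Only the lengths changed and not the counts, so this scaling takes reads in shared exons as not counted. Itgam was then at 64.5% and Itgal at 24.0% after PBS. The shares of Itgax then overlapped between the groups, at p = 0.20 in the exact permutation test, and the p of Itgal was 0.40. Which of Itgal and Itgam was the more abundant depended on the treatment of shared exons, and also on the library, since PBS replicate 3 had more Itgam than Itgal over all exons.

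The balance of Itgb2 with its partners and with β1 was taken per length. Its level per kilobase was 1.50, 1.85 and 2.00 times the summed level of the 4 α chains in the PBS libraries and 2.21, 2.38 and 2.29 times in the WGP libraries. Whole gene counts were also divided by the length of unshared exons alone, which was added after the data were seen. The ratio was then 0.890, 1.03 and 1.04 in PBS libraries and 1.28, 1.32 and 1.31 in WGP libraries. Whether Itgb2 exceeded its partners after PBS thus depended on the treatment of shared exons, while the groups were separate both ways. Against Itgb1, the common β1 chain, it was 1.23, 1.76 and 1.59 times in PBS libraries and 3.96, 3.50 and 3.93 times in WGP libraries. The ratios to the summed α chains and to Itgb1 were higher in every WGP library than in every PBS library, and each had an exact permutation p of 0.10 (adjusted 0.129 over 9 ratios). No such gap was seen for Itgb2 over Itgal alone, per kilobase. That ratio was 3.13, 4.31 and 5.31 in PBS libraries and 4.61, 4.88 and 4.72 in WGP libraries, with p = 0.70 in the exact permutation test. Itgal over Itgam showed no gap either, with 1.58 ± 0.410 after PBS and 1.83 ± 0.0849 after WGP and p = 0.40 in the exact permutation test.

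RefSeq gave the 250 bases before the transcription start for 25 of the 38 genes, in 27 promoters of build GRCm38.p6. They were searched on both strands for the PU.1 core GAGGAA and the AP-1 site TGANTCA, where N is any base. PU.1 is the factor that sets up myeloid gene expression and the CD11b promoter is one of its classic targets. The promoters of Itgam (chr7:128062390-128062639, plus strand) and Itgax (chr7:128129300-128129549, plus strand) are shown because these neighbouring β2 partner genes moved the same way, and that of Itga5 (chr15:103366792-103367041, minus strand) because it was called and holds a core. They are written 5′ to 3′ toward the gene in lower case, with every match to GAGGAA or its reverse complement, or to TGANTCA, in capitals.
Itgam: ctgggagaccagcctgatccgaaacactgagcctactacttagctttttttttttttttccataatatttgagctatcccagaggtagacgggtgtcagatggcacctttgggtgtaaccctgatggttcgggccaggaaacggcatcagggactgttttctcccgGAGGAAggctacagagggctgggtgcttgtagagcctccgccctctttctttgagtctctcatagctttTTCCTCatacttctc
Itgax: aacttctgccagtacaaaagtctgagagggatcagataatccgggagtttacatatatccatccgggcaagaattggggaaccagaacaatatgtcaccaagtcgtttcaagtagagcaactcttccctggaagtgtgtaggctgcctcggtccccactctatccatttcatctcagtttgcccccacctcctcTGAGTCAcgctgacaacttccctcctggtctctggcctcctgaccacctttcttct
Itga5: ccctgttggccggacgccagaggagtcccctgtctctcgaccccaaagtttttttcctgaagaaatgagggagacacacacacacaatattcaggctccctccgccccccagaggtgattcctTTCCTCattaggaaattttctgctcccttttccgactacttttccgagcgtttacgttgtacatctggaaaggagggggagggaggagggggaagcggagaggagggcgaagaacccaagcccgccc
Itgam has cores at 84 to 79 and at 15 to 10 bases before its start, Itga5 has 1 at 127 to 122 bases, and Itgax has no core but an AP-1 match at 56 to 50 bases. The core was found in 11 of the 27 promoters and in 23.3% of all 32851 promoters of the same length. Of the called genes with a promoter, Itga5 alone has a core, and Icam1, Itga1, Itga9 and Itgb7 have none. Sele, without any count, and Itgb6, with counts in 1 library, do have a core. AP-1 matches stood in 4 of the 27 and in 6.75% of all. A search for a fixed NF-κB pattern found it in 0 of the 27 and in 1.41% of all. Variants of the site with other letters were not searched. The result therefore does not show that Icam1 or any other of these genes lacks an NF-κB site. A match to any of these motifs describes letters and not binding.

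Among the counter-receptors Icam1 was called, and it had the smallest p of the 38 genes. Its product is the ligand of LFA-1 and Mac-1 and is found on endothelium and also on activated myeloid cells. Icam1 was at 204, 181 and 130.4 CPM after PBS and at 562, 666 and 471 CPM after WGP. The lowest WGP library was thus far above the highest PBS library. It rose by 1.72 ± 0.20 (log2, SE), or 3.30-fold, with an edgeR adjusted p of 0.000307, and was called in all 16 alternative fits with values from 1.47 to 1.86. Part of its exons, 11.72% of the bases, lies opposite the antisense gene Gm47079, and the strand setting of the counting was not given in the sources used here.

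The other immunoglobulin superfamily members were lower and uneven. Vcam1, the ligand of α4β1, was at 22.6, 25.8 and 51.2 CPM after PBS and at 36.6, 58.2 and 52.1 CPM after WGP, with overlapping groups, a log2 fold change of 0.56 ± 0.31 and an adjusted p of 0.305 in edgeR. Without PBS replicate 3 it was 1.02 with an adjusted p of 0.0273 and was called, and without PBS replicate 1 it was 0.35 with 0.526. Icam2, a second LFA-1 ligand, was at 15.7 ± 5.16 CPM (SD, n = 3) after PBS and 17.4 ± 1.84 CPM after WGP. F11r, the junctional molecule JAM-A, had means of 23.5 and 23.6 CPM and a log2 fold change of 0.00 ± 0.25. For neither gene was a difference detectable. Icam4 had 39 counts in PBS replicate 1 alone and Icam5 had 27 counts in WGP replicate 3 alone, about 1 molecule each.

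Pecam1, which encodes CD31 of endothelium, platelets and many leukocytes, was uneven within the PBS group. It was at 103, 33.8 and 20.0 CPM in the PBS libraries and at 21.4, 25.1 and 16.2 CPM in the WGP libraries. Only PBS replicate 1 stood above the WGP range by a wide margin, and the log2 fold change of -1.32 ± 0.50 had an adjusted p of 0.116 in edgeR. Without PBS replicate 1 the value was -0.37 with an adjusted p of 0.500, and without PBS replicate 3 it was -1.70 with an adjusted p of 0.0223. With the Y-linked counts as a covariate it was -2.29 with an adjusted p of 0.00176.

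The α4 chain and its partners followed different courses. Itga4, whose product joins β1 to bind VCAM-1 and fibronectin and joins β7 to bind MAdCAM-1, was at 566, 609.7 and 501 CPM after PBS and at 1047, 983 and 920.0 CPM after WGP. The groups were separate and the log2 fold change of 0.82 ± 0.15 passed the adjusted p (edgeR, 0.00394) but not the fold threshold. Of its exon bases 8.041% lie opposite the gene Cerkl, which had between 66 and 209 counts in a library. Its β7 partner Itgb7 was at 259.7, 155 and 126 CPM after PBS and at 393, 342 and 386 CPM after WGP. Itgb7 rose by 1.05 ± 0.24 with an edgeR adjusted p of 0.0149, although PBS replicate 1 lay nearer to the WGP libraries than to PBS replicate 3. Its other partner Itgb1 was at 595, 569 and 619.9 CPM after PBS and at 529, 626 and 527 CPM after WGP, with a log2 fold change of -0.08 ± 0.14 and no detectable difference.

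The call of Itgb7 was the least stable of the 6 higher ones and held in 9 of 16 alternative fits. It was lost with library totals (0.93), without PBS replicate 2 (adjusted p 0.0776), without PBS replicate 3 (0.85), and without WGP replicate 1 or WGP replicate 3 (adjusted p 0.0533 and 0.0528). With the Y-linked counts as a covariate the log2 fold change was 0.52 with an adjusted p of 0.115. Counts of Itgb7 over those of Itgb1 were 0.437, 0.273 and 0.204 in PBS libraries and 0.742, 0.546 and 0.732 in WGP libraries, so the groups did not overlap (exact permutation p of 0.10, adjusted 0.129). Itgae, the αE chain that pairs with β7 and binds E-cadherin, had at most 183 counts in a library and was at 0 in PBS replicate 3. Itgb4, the β4 chain of epithelial hemidesmosomes, reached 261 counts in WGP replicate 2 and was at 0 in WGP replicate 3.

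Itga9, which encodes the α9 chain of α9β1, a receptor for tenascin-C, osteopontin and VCAM-1, had the largest fall of the 2 that were called lower. It was at 61.2, 125 and 123 CPM after PBS and at 20.2, 23.3 and 29.5 CPM after WGP. All WGP libraries lay below all PBS libraries, and PBS replicate 1 was the nearest to them. Itga9 fell by 2.08 ± 0.28 on the log2 scale with an edgeR adjusted p of 0.000721 and was called in each of the 16 alternative fits, with values from -2.35 to -1.33, the smaller size against PBS replicate 1 alone. The related chains α4 and α9 thus moved apart, with 9.25, 4.87 and 4.06 counts of Itga4 for each count of Itga9 in PBS libraries and 51.9, 42.2 and 31.2 in WGP libraries. This ratio did not overlap between the groups, at an exact permutation p of 0.10 (adjusted 0.129).

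Itga6, the α6 chain that pairs with β1 or β4 to bind laminin, was at 52.5, 53.8 and 38.9 CPM after PBS and at 22.3, 24.1 and 24.3 CPM after WGP. It fell by 1.04 ± 0.20 on the log2 scale with an adjusted p of 0.00585 in edgeR, at the edge of the fold threshold. Without PBS replicate 1 the value was -0.98, without PBS replicate 2 it was -0.95 and without WGP replicate 1 it fell just short of the threshold, and in these fits the gene was not called. The other laminin-binding chains Itga3 and Itga7 had at most 238 and 102 counts in a library, with libraries at 0 in both.

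Itga5 encodes the α5 chain of the main fibronectin receptor α5β1. It was at 90.7, 129.9 and 132 CPM after PBS and at 239, 308 and 222 CPM after WGP, so that the groups were well apart. Itga5 rose by 1.12 ± 0.19 with an edgeR adjusted p of 0.0031, and without PBS replicate 1 or without WGP replicate 2 the value was 0.97 and under the fold threshold. The fibronectin receptor gene Itga5 and the laminin receptor gene Itga6 moved in opposite directions, with 1.73, 2.41 and 3.39 counts of Itga5 per count of Itga6 in PBS libraries and 10.7, 12.7 and 9.13 in WGP libraries. The exact permutation test of this ratio gave p = 0.10 (adjusted 0.129).

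Itga1, the α1 chain of the collagen receptor α1β1, was low but rose. It was at 12.3, 9.39 and 7.57 CPM after PBS and at 24.3, 49.0 and 33.3 CPM after WGP, which rests on 310 to 472 counts in the PBS libraries and 895 to 2033 counts in the WGP libraries. The log2 fold change was 1.87 ± 0.32 with an adjusted p of 0.00295 in edgeR, and with the Y-linked counts as a covariate it was 1.53 with an adjusted p of 0.0545. The other collagen-binding chains were sparse and none was called. Itga2, expressed by platelets and epithelia, was at 6.72 ± 4.63 CPM after PBS and 4.01 ± 0.787 CPM after WGP, Itga10 had at most 135 counts in a library, and Itga11 had counts only in PBS replicate 2 and WGP replicate 2.

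The αV chain and its partners β5 and β3 were measured in every library. Itgav, the αV chain that binds vitronectin and takes part in the uptake of dying cells, was at 46.1, 67.1 and 63.2 CPM after PBS and at 85.0, 109 and 78.9 CPM after WGP. Its β5 partner Itgb5 went the other way, with 128, 161 and 172 CPM after PBS and 113, 81.6 and 113 CPM after WGP. Both had groups that did not overlap, with log2 fold changes of 0.63 ± 0.19 and -0.58 ± 0.18, and adjusted p of 0.0585 and 0.0587 in edgeR, over the threshold. Itgb5 passed the adjusted p with library totals (0.0256), with upper-quartile scaling (0.0454), in DESeq2 (0.0238) and without PBS replicate 1 (0.0207). It was at -0.32 with the Y-linked covariate. Itgav passed in DESeq2 (0.0459) and with the replicate block (0.0490), and was at 0.98 with the Y-linked covariate. Itgb3, the β3 chain of platelets, osteoclasts and some macrophages, was at 6.83 ± 3.72 CPM after PBS and 8.86 ± 3.17 CPM after WGP with overlapping groups. Itgb6 and Itgb8, whose αV partners activate latent TGF-β, had counts in 1 and 3 of the 6 libraries, and Itga8, an RGD-binding α chain of mesenchymal cells, had between 32 and 350 counts. Itga2b, the platelet αIIb chain, had between 42 and 66 counts in every library.

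**Figure D3:**
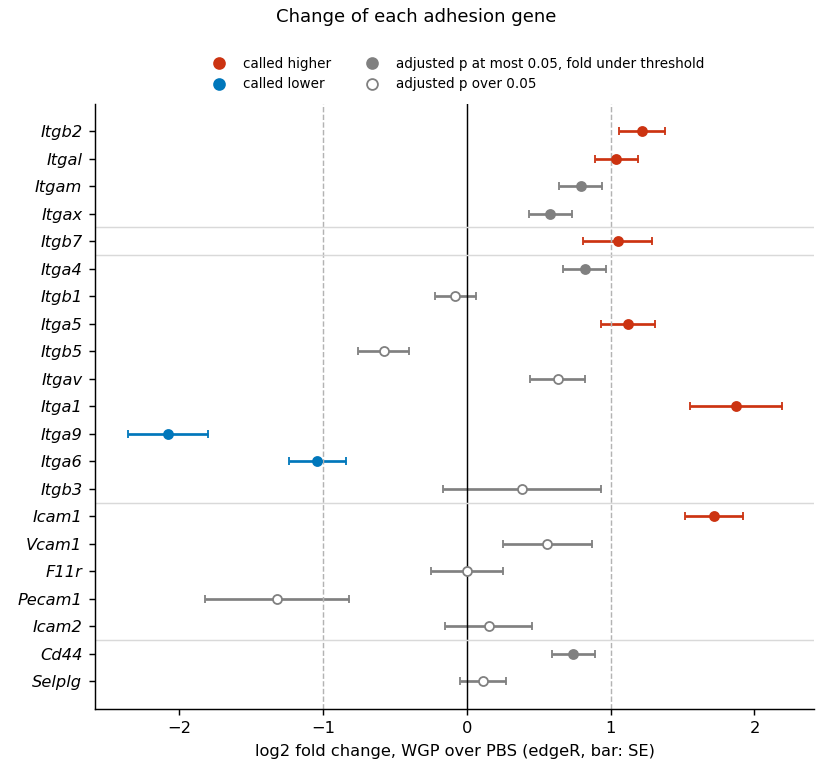
Log2 fold change of WGP over PBS for 21 adhesion genes with at least 100 counts in every library, with bars for the SE and dashed lines at the fold threshold of 1 in either direction. Red points were called higher, blue points lower, filled grey points passed the adjusted p only, and open points did not pass it. Itga9 lies at -2.08 and Itga1 at 1.87, and Pecam1 and Itgb3 have the widest bars.

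Selplg, the P-selectin ligand PSGL-1 of nearly all leukocytes, was at 445, 471 and 461 CPM after PBS and at 558, 396 and 533 CPM after WGP, with a log2 fold change of 0.11 ± 0.16 and no detectable difference.

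Cd44, the hyaluronan receptor that also carries E-selectin ligands, was at 462, 544 and 503 CPM after PBS and at 920.3, 834 and 774 CPM after WGP. The groups were far apart relative to their spread, and the log2 fold change of 0.74 ± 0.15 passed the adjusted p (edgeR, 0.00628) under the fold threshold. Selp, the P-selectin of platelets and endothelium, was at 5.07, 1.57 and 2.47 CPM after PBS and at 6.62, 20.2 and 1.27 CPM after WGP, with WGP replicate 2 alone high. Its log2 fold change was 1.63 ± 0.88, and 0.38 without WGP replicate 2, with an adjusted p of 0.285 and 0.849 in edgeR.

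Ordered by mean CPM per kilobase of exon after PBS, Itgb2 stood first at 222, followed by Itgb1 at 146, Selplg at 107, Cd44 at 74.3, Itgb7 at 65.2, Itgal at 53.3 and Itgam at 45.3. After WGP the order was Itgb2 at 519.7, Itgb1 at 137, Itgb7 at 135, Icam1 at 129.8, Cd44 at 124, Selplg at 116 and Itgal at 109.7. Icam1 had rank 10 after PBS, at 39.4 CPM per kilobase, and rank 4 after WGP. Itgb2 was far above its neighbour in every library of WGP, while the means from Itgb1 down to Itgal lay between 137 and 109.7 and their order is not clear of the spread. The order between genes depends on the annotated exon length and, for Itgam, on how reads in shared exons were counted. Itgam was divided here by all its 5024 exon bases. Divided by its 1574 unshared bases, as in the alternative above, it would stand higher in both orders.

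Of the 38 genes 22 had at least 100 counts in every library and held all 8 calls. Of the other 16 genes 15 were tested, and 0 were called in edgeR, DESeq2 or limma-voom, with 0 at an unadjusted p under 0.05 in edgeR. Their highest count in a library was between 27 and 838 reads apart from Sele, beside a most frequent low count of 19 to 41 reads, so their fold changes had wide errors.

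**Figure D4:**
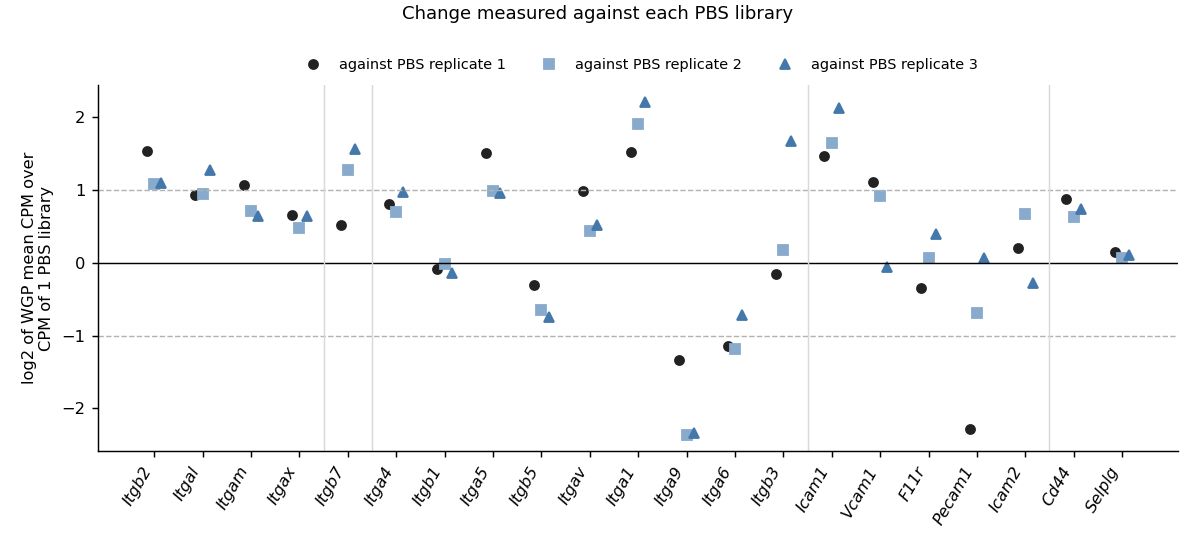
Log2 of the mean CPM of the 3 WGP libraries over the CPM of each PBS library, for 21 adhesion genes with at least 100 counts in every library (black, blue squares and blue triangles for PBS replicates 1, 2 and 3). Itgb2, Icam1, Itga1 and Itga9 keep their side of 1 against each PBS library, while Pecam1 runs from -2.29 to 0.06 and Itgb7 from 0.52 to 1.56.

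Markers of other cells differed between the libraries, and their part in the changes above was not tested. The 7 B cell markers summed to 2521, 657 and 383 CPM in the PBS libraries and to 157, 181 and 89.6 CPM in the WGP libraries, and 6 of the 7 were called lower, Ms4a1 among them at -3.50 (log2, edgeR adjusted p 0.00485). The 10 neutrophil markers summed to 6108, 3167 and 1768 CPM after PBS and to between 2412 and 2719 CPM after WGP, with Cxcr2 alone called, at 1.30, while 8 of the 10 had log2 fold changes below 0 and the median was -0.82. Pecam1 and Itgb7 had the same order over the PBS libraries as these 2 sums, with replicate 1 highest. So had 8 of the 22 adhesion genes with at least 100 counts in every library, while 4 had the reverse order. In the WGP libraries Itgb7 was higher than in any PBS library while the B cell sum was lower than in any.

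The 12 resident macrophage markers summed to 9846, 16989.9 and 20412 CPM after PBS and to 4082, 6261 and 5462 CPM after WGP, and 9 of the 12 were called lower, Mrc1 at -2.91, Folr2 at -3.67 and Cd163 at -4.50. The sum was lowest in PBS replicate 1 within its group. Of the 22 adhesion genes with at least 100 counts in every library, 10 were lowest there too. They held Itga9 that fell and Itgb2 and Itga5 that rose. Another 10, Itga6 among them, were lowest in PBS replicate 3, where the sum was highest, and 2 in PBS replicate 2. Shares over all genes were not computed. Of 8 Ly6C-high monocyte markers 6 were called higher and 1 lower, with Vcan at 3.89, Ccr2 at 1.98 and F13a1 at -2.57, and their sum of 2438 to 4146 CPM after PBS overlapped with 3626 to 4181 CPM after WGP where F13a1 alone gave 1335 to 3474 CPM after PBS. The 8 general myeloid markers were all present and summed to between 10597 and 16846 CPM after PBS and between 23906 and 25374 CPM after WGP. Lyz2 alone was called, at 1.21, and gave 4933 to 8230.4 CPM after PBS and 15657 to 16887 CPM after WGP. At the adjusted p alone 5 of the 8 were higher, while Csf1r was at -0.31 and Cd68 at -0.02.

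Signal of non-leukocytes was present too. The 11 acinar markers summed to between 1554 and 5911 CPM after PBS and between 404 and 675 CPM after WGP, and 10 of the 10 tested were called lower. The 8 fibroblast markers summed to 1855 CPM in WGP replicate 2 and to between 40.5 and 190.1 CPM in the other libraries, and the 8 mesothelial markers to 72.9 CPM in that library and at most 15.9 CPM in the others. That library had the highest level in 15 of the 37 adhesion genes with a count, Selp, Itga1, Itga5, Icam1 and also Itgb2 and Itgam among them. WGP replicate 1 was highest in 8 of the 37. Of the 22 genes with at least 100 counts in every library, WGP replicate 2 was highest in 9 and WGP replicate 1 in 7. The share over all genes was not computed. Without WGP replicate 2 Itga1 (1.56) and Icam1 (1.59) were still called, and Itga5 (0.97) was not. Endothelial markers summed to between 17.0 and 24.4 CPM after PBS and between 31.8 and 56.2 CPM after WGP. Kdr alone was called of 10, higher, and gave 21.0, 36.2 and 20.4 CPM of the WGP sums. After PBS it gave 3.90, 7.91 and 1.73 CPM. Of the 10 markers 6 had log2 fold changes below 0, and the median was -0.56. Cdh5 was at 4.15 CPM after PBS and 1.79 CPM after WGP. Platelet markers summed to at most 9.48 CPM, and 5 of the 10, with Gp9, Gp5, Gp1ba and Gp1bb among them, were at 0 in all libraries.

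**Figure D5:**
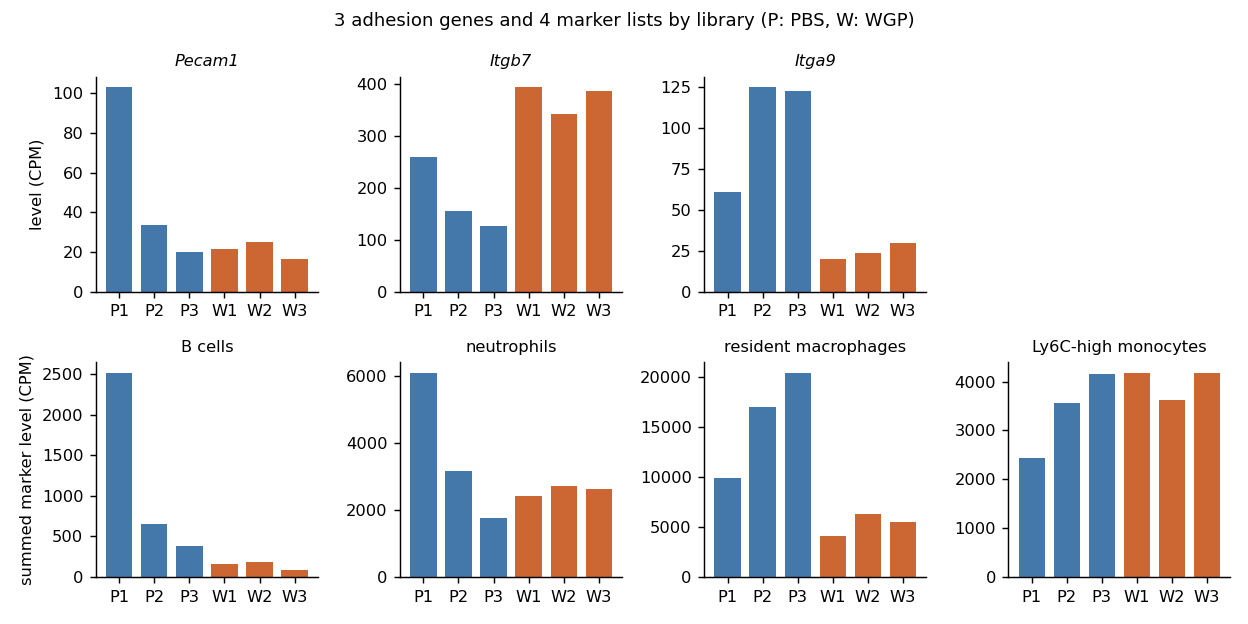
Level of 3 adhesion genes (top, CPM) and summed level of 4 lists of cell markers (bottom, CPM) in each library, in bars from 0 (P, PBS in blue; W, WGP in orange; the number is the replicate). Pecam1, the B cell markers and the neutrophil markers are highest in PBS replicate 1, at 103, 2521 and 6108 CPM, and Itga9 is lowest of the PBS group there.

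Eosinophil markers summed to 73.8 to 110.0 CPM after PBS and 34.0 to 88.3 CPM after WGP, with Ear2 called lower among the 8. Mast cell and basophil markers summed to 12.4 to 30.1 and 32.7 to 48.5 CPM, of which Kit, called higher, gave nearly all after WGP, while the other 5 tested had fold changes below 0 and none was called, and Cpa3 and Mcpt4 were at 0 in all libraries. Conventional dendritic cell markers summed to 263 to 268 and 116 to 218 CPM, with Cd209a lower at -1.35. NK cell markers summed to 60.6 to 243 and 47.6 to 65.5 CPM, with Gzma and Gzmb called lower of 8. T cell markers summed to 38.3 to 50.6 and 20.2 to 57.4 CPM, with Cd8a called higher on a WGP mean of 2.03 CPM and 0 counts after PBS.

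The genes around the receptors were taken from 6 lists, in which 12 of 122 tested genes were called higher and 10 lower, with a median log2 fold change of 0.30. Integrins are opened from inside by talin and kindlin, which Rap1 and its activators recruit to the β tail. Of 39 activation and adaptor genes 4 were called lower and 0 higher in edgeR, DESeq2 or limma-voom, with 8 higher at an unadjusted p under 0.05 in edgeR. At the adjusted p alone 7 were higher and 4 lower. Rasgrp3, a Rap1 and Ras activator, was at 121 ± 10.7 CPM (SD, n = 3) after PBS and 7.57 ± 1.42 CPM after WGP, a log2 fold change of -4.00 ± 0.21 with an edgeR adjusted p of 4.86e-06. Rasgrp2, the CalDAG-GEFI activator of Rap1 in platelets and neutrophils, fell by 1.12 ± 0.26, and the other 2 were the second talin Tln2, which fell by 4.37 ± 0.33, and the focal adhesion kinase gene Ptk2, which fell by 1.86 ± 0.32. The common talin Tln1 was at 1468 ± 213 CPM after PBS and 1668 ± 164 CPM after WGP with a log2 fold change of 0.18 ± 0.16, and the leukocyte kindlin Fermt3 was at 0.47 ± 0.13 with an adjusted p of 0.0419, under the fold threshold.

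Src family and related kinases carry the signal of a bound integrin inward. Of 14 kinase and adaptor genes 4 were called higher and 0 lower in edgeR, DESeq2 or limma-voom, with 1 lower at an unadjusted p under 0.05 in edgeR. Fgr, a Src family kinase of myeloid cells, was at 189, 177 and 147 CPM after PBS and at 663, 541 and 605 CPM after WGP, a log2 fold change of 1.82 ± 0.16. Its relative Src rose by 1.72 ± 0.50 and the phosphoinositide 3-kinase subunit gene Pik3r5 by 1.33 ± 0.19. In Fgr and Pik3r5 every WGP library lay above every PBS library by a wide gap.

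Of 21 matrix and ligand genes 3 were called higher and 1 lower. Thbs1, thrombospondin 1, was at 249, 295 and 252 CPM after PBS and at 3619, 1173 and 1447 CPM after WGP, and rose by 2.97 ± 0.38. Spp1, the osteopontin that α4, α9 and αV integrins bind, was at 9.31, 10.5 and 9.24 CPM after PBS and at 57.8, 56.2 and 56.4 CPM after WGP, and rose by 2.55 ± 0.19. Emilin1, a ligand of α4 and α9 integrins, rose by 1.92 ± 0.22, and Ccn1 fell by 3.70 ± 0.97. Fn1, fibronectin itself, was at 513, 1171 and 2293 CPM after PBS and at 3008, 4691 and 2560.2 CPM after WGP, but the spread within PBS left it at an adjusted p of 0.0702 in edgeR.

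Of 14 enzymes that build selectin ligands 1 was called in each direction. The sialyltransferase gene St3gal6 was at 96.3 ± 9.98 CPM after PBS and 12.2 ± 2.86 CPM after WGP and fell by 2.98 ± 0.21, while C1galt1c1, the chaperone of core 1 O-glycan synthesis, rose by 1.41 ± 0.36. Of 22 other receptors of transmigration 3 were called higher, Sirpa at 1.20, Nectin2 at 1.81 and Jaml at 1.05, and 2 lower, Cd2 at -2.86 and Cd99l2 at -1.74. Cd2 had its highest level of 173 CPM in PBS replicate 1, the library with the highest B cell sum. Of 12 sheddase and tetraspanin genes Adam17, a sheddase of many membrane proteins, rose by 1.17 ± 0.14, and the tetraspanins Cd81 and Cd37 fell by 2.98 ± 0.28 and 1.50 ± 0.28. Cd37 too was highest in PBS replicate 1, at 808 CPM against 384 and 373 CPM in the other PBS libraries. These counts are read beside 4.53% of all tested genes called higher and 4.96% called lower.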

How the data were processed

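Poly(A) RNA of the sorted pancreas cells was sequenced in 3 PBS and 3 WGP libraries. Per the labels, the authors used STAR 2.6 and HTSeq 0.10.0 on build GRCm38.p6, and they deposited raw counts per Ensembl gene with no normalization. Strand setting and annotation release are not given in the sources used here. Genes without a protein-coding entry in GENCODE vM21 (80) were left out.

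WGP was tested against PBS with edgeR 4.0.16 (R 4.3.3), as a quasi-likelihood test with TMM scaling, on the 14429 genes that reached 10 RLE-normalized counts in the sum of the 6 libraries. Adjusted p is Benjamini-Hochberg over these genes. SE is the log2 fold change over the signed root of F. Shares and ratios were tested with exact two-sided permutation tests. Library totals are in the report. Alternatives were RLE, upper-quartile and total scaling, DESeq2 1.42.0, limma-voom 3.58.1, other filters and thresholds, each library left out, a replicate block and a covariate for Y-linked counts. The fit on libraries without Y-linked counts and the scaling of whole counts by lengths of unshared exons were added after seeing the data.

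The genes and lists were chosen with earlier results of these data known. Members are named, and the values of 3 genes are not reported here. Of a pathway list the called genes (at most 6, by p) and of a cell list the 3 called genes with the smallest p could be named. Ptprc, Tln1, Fermt3, Fn1 and Cdh5 were named after their values were seen.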

Additional observations from a re-analysis of the deposited data

How the results depend on the processing

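No called member changed direction under the 16 alternatives, and 556 of 582 member values stayed on their side of the threshold, while 18 lost the call and 8 gained it. RLE and upper-quartile scaling, DESeq2, limma-voom and the other filters gave 6 or 7 members higher and 2 lower. Library totals, which shifted the median of all genes from -0.05 to -0.16, gave 4 higher and 2 lower. Leaving out each library in turn gave 5 to 6 members higher and 1 to 3 lower, and Itga9 was the only one lower when PBS replicate 1 or 2 or the first WGP library was left out. The Y-linked covariate and PBS replicate 1 as the only control each gave 4 higher and 3 lower, and the lone control is then assumed to vary like the WGP group. With no fold threshold 10 members were higher, 2071 genes were called in all and 26 pathway genes were higher. At a log2 fold change of at least 2 in size, edgeR left 0 members higher and 1 lower, 568 genes in all, and 2 pathway genes higher and 6 lower, with 12 members higher at an unadjusted p under 0.05. With the replicate block 1341 genes were called in place of 1369, and the members called were 6 higher and 2 lower, with Itgax at an adjusted p of 0.0587 in edgeR. The numbers were not taken as a pairing, since the deviations of same-numbered libraries correlated at 0.062, -0.071 and 0.085 over 10705 genes, and PBS replicate 2 matched WGP replicate 3 best. The order of the shares of β2-pairing α chains depended on shared exons, and each difference kept its sign. With the lengths of unshared exons the shares of Itgal and Itgax had exact permutation p of 0.40 and 0.20 in place of 0.10. Depth limits the 16 members with a library under 100 counts, which rest on few molecules.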
